A study of Mus musculus with 71 samples.

Results

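H3K27me3 peaks that were broad in wild-type mouse embryonic stem cells (mESCs) and were still called in mESCs without 3 linker histone genes were examined here. The members are 491 peaks of the WT list. They were chosen by 2 measured properties, a width of at least 2000 bp and an overlap of at least 1 bp with any peak of the H1-TKO list, both on assembled chromosomes. They are 491 of 571 broad WT peaks and of 6789 WT peaks on assembled chromosomes, in a list of 6957 in all. The lists came from H3K27me3 ChIP-seq of WT mESCs and of H1-TKO mESCs, 1 list per genotype and each from the replicate numbered 1. The H1-TKO line was made in mESCs with CRISPR/Cas9 and a guide shared by H1c, H1d and H1e, and was grown from a single-cell clone, so it cannot be told apart from its clone. Both genotypes have the background of the R1 mESC line and were kept on gelatin with LIF. RNA-seq covered 4 libraries, 2 labelled WT and 2 labelled H1KO.

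H3K27me3 is laid down by Polycomb repressive complex 2 (PRC2), whose catalytic subunit EZH2 methylates lysine 27 of histone H3. In mESCs the mark lies over CpG islands, short CpG-rich stretches at the starts of silent developmental genes, and PRC2 that binds the mark through EED can spread it to neighbouring nucleosomes. Linker histone H1 binds the nucleosome where DNA enters and leaves it and helps chromatin to compact. A broad peak is therefore a long stretch that the caller joined into 1 region, and it can be kept whole, trimmed at its ends, broken into several peaks or not called at all.

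The windows at 4 loci show what lay in the covered and the uncovered stretches of such peaks, where covered means overlapped by an H1-TKO peak. The sequences are 200 bp windows of mm9 (NCBIM37), plus strand, taken nearest to the middle of the longest covered and the longest uncovered stretch and outside annotated coding and untranslated sequence. Capitals mark each CpG. At Fgf3, a secreted growth factor gene, both windows are intronic, chr7:152025139-152025338 with 20 CpG and chr7:152026058-152026257 with 0. At Has3, which codes for a hyaluronan synthase, the covered window is intronic (chr8:109394474-109394673, 15 CpG) and the uncovered window lies 1073 bp upstream of the start (chr8:109392970-109393169, 2 CpG). At Eomes, a T-box transcription factor gene of early mesendoderm, both windows lie upstream of the gene, at chr9:118385816-118386015 with 11 CpG and, between 2 H1-TKO peaks, at chr9:118386419-118386618 with 10. Dlx2, a homeobox gene of the forebrain and jaw, goes the other way in its windows only. Over its whole peak, the covered length held more CpG per 100 bp than the uncovered length. Its intronic covered window (chr2:71383083-71383282) holds 7 CpG and the uncovered window past the gene (chr2:71381266-71381465) holds 14.
Fgf3 covered: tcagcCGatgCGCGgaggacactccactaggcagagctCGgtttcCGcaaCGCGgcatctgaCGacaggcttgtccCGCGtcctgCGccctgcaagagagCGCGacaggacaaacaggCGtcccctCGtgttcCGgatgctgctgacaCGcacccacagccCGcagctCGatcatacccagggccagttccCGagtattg
Fgf3 uncovered: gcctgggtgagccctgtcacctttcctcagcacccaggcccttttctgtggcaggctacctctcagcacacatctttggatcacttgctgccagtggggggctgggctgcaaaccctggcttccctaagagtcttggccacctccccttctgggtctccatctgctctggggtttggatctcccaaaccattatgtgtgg
Has3 covered: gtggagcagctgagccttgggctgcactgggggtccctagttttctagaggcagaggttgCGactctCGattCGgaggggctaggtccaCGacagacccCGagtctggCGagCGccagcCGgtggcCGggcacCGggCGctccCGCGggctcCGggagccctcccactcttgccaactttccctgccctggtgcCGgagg
Has3 uncovered: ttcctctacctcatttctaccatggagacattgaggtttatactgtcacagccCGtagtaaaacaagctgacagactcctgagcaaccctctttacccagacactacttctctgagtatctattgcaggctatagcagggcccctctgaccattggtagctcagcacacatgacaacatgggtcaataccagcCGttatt
Eomes covered: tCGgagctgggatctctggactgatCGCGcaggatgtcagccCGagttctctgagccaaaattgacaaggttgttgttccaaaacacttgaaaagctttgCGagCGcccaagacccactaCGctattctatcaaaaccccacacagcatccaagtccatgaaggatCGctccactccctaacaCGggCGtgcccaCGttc
Eomes uncovered: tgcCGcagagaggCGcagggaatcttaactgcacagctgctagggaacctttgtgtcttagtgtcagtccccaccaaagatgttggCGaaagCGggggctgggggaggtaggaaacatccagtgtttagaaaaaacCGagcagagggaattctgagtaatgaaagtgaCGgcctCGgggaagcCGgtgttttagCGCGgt
Dlx2 covered: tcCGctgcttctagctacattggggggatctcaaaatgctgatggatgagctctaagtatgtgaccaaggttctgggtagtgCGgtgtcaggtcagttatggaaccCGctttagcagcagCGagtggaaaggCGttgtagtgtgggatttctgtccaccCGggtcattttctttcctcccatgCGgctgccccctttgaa
Dlx2 uncovered: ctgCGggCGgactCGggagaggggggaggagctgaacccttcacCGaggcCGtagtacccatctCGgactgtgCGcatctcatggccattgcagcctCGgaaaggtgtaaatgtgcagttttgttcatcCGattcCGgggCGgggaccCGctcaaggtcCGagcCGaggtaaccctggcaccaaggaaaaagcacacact

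Most kept broad peaks were covered over more than 50% of their length, as kept WT peaks were in general, but full cover was less common among them. A member was 2534 bp wide at the median, from 2002 to 7345 bp. Its covered share was 84.4% at the median, with quartiles of 66.1% and 96.4% and a range of 10.7% to 100%. An H1-TKO peak lay over the full width of 54 of the 491 members, against 20.8% of all kept WT peaks, and over at least 90% of 195 (39.7%), against 41.2%. At least 50% was covered in 426 members (86.8%), against 84.2% of all WT peaks that were kept. Under 25% was covered in 5. In sum the members took up 1348.2 kb, of which 1056.1 kb (78.3%) lay under H1-TKO peaks. With 1 list per genotype there is no replicate error behind these shares. Choosing peaks by their WT width also favours a lower cover in the other list, so the same rule was applied with the lists exchanged. The 377 broad H1-TKO peaks that met a WT peak were covered by 94.1% at the median.

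**Figure D1:**
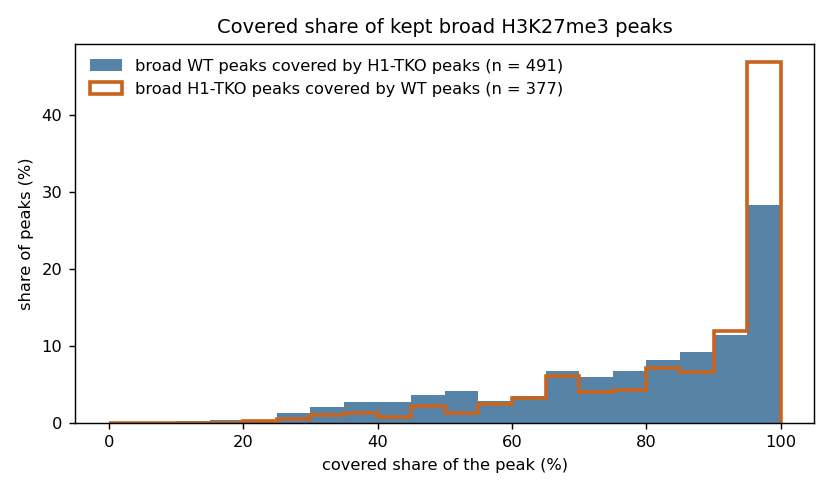
Share of peaks (y axis, %) by the share of the peak that the other list covers (x axis, %, in steps of 5). Filled bars are the 491 kept broad WT peaks under H1-TKO peaks, with a median of 84.4%, and the outline is the 377 kept broad H1-TKO peaks under WT peaks, with a median of 94.1%; both pile up at full cover.

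The uncovered length lay at the ends of the peaks rather than inside them. Of 292.0 kb that no H1-TKO peak covered, 275.6 kb (94.4%) was at the outer ends and 16.47 kb (5.64%) between H1-TKO peaks. Both ends were shorter in 201 members, 1 end in 226 and neither in 64. Of all 3726 kept WT peaks these were 792, 2007 and 927, so both ends were short in a larger share of the members. An end was shorter by at least 500 bp on both sides in 20 members and on 1 side in 175. The reverse also occurred. The H1-TKO peaks together were wider than the WT peak in 139 members (28.3%), against 50.5% of all kept WT peaks, and ran 122.9 kb past the WT edges in total. Narrower WT peaks that were kept had 95.1% of their uncovered length at the ends.

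Splitting was less common than trimming and most gaps were short. A single H1-TKO peak met 401 members, and 2 or 3 met the other 90 (18.3%, 95% Clopper-Pearson interval 15.0 to 22.0). The background over all kept WT peaks was 10.7%, and that share grew with width, from 2.77% of kept peaks under 500 bp to 19.4% at 1500 to 2000 bp, after which it stayed between 17.8% and 20.5%. With the lists exchanged, 44 of 377 broad H1-TKO peaks met several WT peaks. The 94 gaps inside members had a median of 58.5 bp and ranged from 1 to 1141 bp. They were under 100 bp in 58 cases. Joining H1-TKO peaks within 500 bp of each other left 10 split members, and joining within 1 kb left 2. These intervals, and those below, cover counting error only.

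The 4 members met by 3 H1-TKO peaks were at Tac1, at Necab2 and at 2 places with no gene start within 1 kb. At Tac1, which codes for the precursor of substance P, the WT peak of 2569 bp had a score of 293.4. The score is the peak caller's p-value on a log scale, multiplied by −10, and the lists hold none below 50. The 3 H1-TKO peaks there were 351, 1122 and 609 bp wide with scores of 53.6, 140.1 and 63.2, and they covered 81.0% of the WT peak. The gaps between them added up to 108 bp, less than the 375 bp left uncovered at 1 end. At Necab2, which codes for a neuronal calcium-binding protein, a score of 414.6 in WT stood against 132.8, 53.6 and 67.7. The chromosome 6 member from 90258431 to 90260714 went from 493.7 to scores of 154.0, 50.3 and 74.1.

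Among the 10 widest members, cover ran from 31.2% to 100%. The widest lies on chromosome 8 from 72403751 to 72411095, next to the starts of Cilp2, a cartilage matrix gene, and Yjefn3. It measured 7345 bp in WT and 7653 bp in H1-TKO mESCs, while its score was 132.9 and 85.6. At Ecel1, a neuronal endopeptidase gene, 6672 bp in WT became 7620 bp in H1-TKO mESCs, yet the score was 135.4 and 50.6. Width and score therefore went in different directions at both. At Lhx6, a homeobox gene of cortical interneurons, the WT peak of 5964 bp kept 3332 bp, over the start and the gene side, with scores of 54.0 in both lists. At Wnt1, a secreted signal of the midbrain-hindbrain boundary, 1617 of 5185 bp was covered and the score was 107.5 and 101.4. At Nptx1, a neuronal pentraxin gene, 2 H1-TKO peaks of 777 and 1794 bp met a WT peak of 4880 bp, and the start of the gene lies under the smaller. Lrg1 kept 95.2% in 2 peaks, Nrp2, a semaphorin co-receptor gene, 80.0%, and Tnfaip2 75.7%. The member at Sfi1 was covered by 99.6%, but at 0.90 CpG per 100 bp it had few CpG for a member.

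The members at both ends of the range of cover included peaks with no gene start. The 5 least covered were a chromosome 12 peak from 74042850 to 74045723 with no gene start (10.7%), Atp7b and Alg11 (15.3%), Has3 (18.7%), Mfsd2a (23.2%) and a chromosome 7 peak from 77423891 to 77427327 with no gene start (23.8%). Atp7b codes for a copper transporter and Mfsd2a for a lipid transporter of the blood-brain barrier. Their WT scores were 64.8, 312.8, 176.4, 281.2 and 62.4. The 5 widest of the 54 fully covered members were at Cilp2, Ecel1 and Ihh, the hedgehog ligand of cartilage, and at 2 places with no gene start, on chromosome 16 from 18580251 to 18584428 and on chromosome 11 from 118918439 to 118922053. At Ihh the peak was 4841 bp wide with a score of 175.9 in WT, and the H1-TKO peak was 6530 bp wide with a score of 145.0.

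Scores of the members were lower in the H1-TKO list for most of them. The median was 204 in WT and 155 for the highest H1-TKO peak on the same member. The ratio of H1-TKO to WT score had a median of 0.819, with quartiles of 0.633 and 1.05 and a range of 0.202 to 2.89. It was under 1 in 346 members, over 1 in 144 and equal in 1. The ratio was below 1/1.5 in 147 members (29.9%), against 21.4% of all kept WT peaks, and over 1.5 in 18 (3.67%), against 18%. Over all kept WT peaks the median ratio was 0.959. A score is a p-value scale that depends on the depth of the library and on the width of the peak, so its ratio is no fold change of H3K27me3, and high WT scores were favoured by the choice of broad WT peaks. With the lists exchanged, the ratio of WT to H1-TKO score over broad H1-TKO peaks was 1.02 at the median.

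**Figure D2:**
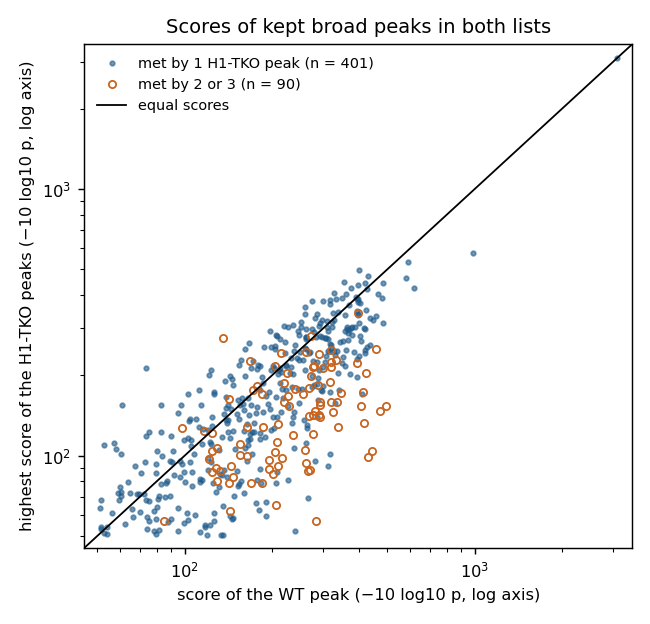
Score of each of the 491 members in the WT list (x axis) against the highest score of the H1-TKO peaks that meet it (y axis), both as −10 log10 p on log axes, with the line of equal scores. Most points lie under the line, 346 of 491, and members met by 2 or 3 H1-TKO peaks (open circles) lie mostly under it too.

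The lowest ratios were at Eomes, Fgf3, a chromosome 13 member from 23486156 to 23488212 with no gene start, Gab1 and a chromosome 5 member from 144053480 to 144056169 with no gene start. At Eomes the WT score of 282.8 stood against 57.1, a ratio of 0.20, and the larger of 2 H1-TKO peaks was 884 bp wide. At Fgf3 it was 240.4 and 52.3, with 27.2% of 2340 bp covered. At Gab1, an adaptor of receptor tyrosine kinases, it was 441.9 and 103.8, again in 2 peaks. The highest ratios were at a chromosome 3 member from 53456088 to 53458373 (73.7 and 213.2), Dio3 (60.6 and 154.7), a chromosome 5 member from 98617293 to 98619495 (52.7 and 109.4), Cecr6 (135.7 and 275.5) and Dlx2 (57.2 and 111.2). Dio3 codes for the deiodinase that inactivates thyroid hormone and lies in an imprinted region. Of these 5 members, 4 had a WT score under 100, against 76 of all 491. A member singled out after its values were seen, on chromosome 17 from 39979928 to 39983736 with no gene start within 1 kb, had a score of 3100, the highest written in both lists, and 10.76 CpG per 100 bp.

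The members just above the width limit had a higher cover than most of the peaks just below it, and 5 peaks on each side are too few to compare further. The 5 just above it were 2002 to 2007 bp wide, at Megf6, 8430419K02Rik and 3 places with no gene start, with cover of 82.1% to 100% and ratios of 0.44 to 1.28. The 5 kept WT peaks just below it were 1992 to 1999 bp wide. They were at Wnt3 (74.0% covered), Ccnd2 (30.7%), Kcnk3 (36.7%), Mafa (89.7%) and 1 place with no gene start (35.7%), with ratios of 0.41 to 0.91. Over all WT peaks, the share that an H1-TKO peak met was 31.4% under 500 bp, 62.1% from 500 bp, 82.6% from 1000 bp, 88.1% from 1500 bp, 88.0% from 2000 bp and 90.6% from 2500 bp. It was 80.7% from 3000 bp (88 of 109) and 71.7% from 4000 bp (33 of 46, interval 56.5 to 84.0). Cover of the kept peaks stayed between 80.7% and 86.9% at the median in all 8 width groups.

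Whether a broad WT peak was kept went with its WT score. Of the 571 broad WT peaks 86.0% were kept, against 54.9% of all 6789 WT peaks. In the lowest of 4 groups by WT score, 50.3 to 102, 79 of 143 were kept (55.2%), in the next 127 of 142 (89.4%), then 142 of 143 (99.3%), and 143 of 143 in the highest. The 80 that were not kept had a median score of 68.9 and a median width of 2692 bp. An H1-TKO peak lay within 5 kb of 32 of the 80 and within 1 kb of 10. Broad WT peaks that were not kept include those at Isl2 (119.6), Foxc2 (112.1), Barx1 (111.1), Neurod2 (105.2), Pax2 (98.7), Dll1 (62.9) and Fgf9 (63.8).

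The share of broad WT peaks that was kept was lower at developmental regulators, whose WT scores were also lower, and the difference was not tested. The lists of developmental genes held Hox genes, other homeobox genes, further developmental transcription factors, and signalling ligands with their antagonists, and were chosen with earlier results of these data known. A gene was placed at a peak when its annotated start lay inside or within 1 kb. Of 108 broad WT peaks at such a gene, 72 were kept (66.7%, interval 56.9 to 75.4), against 419 of 463 elsewhere (90.5%, interval 87.5 to 93.0). Their WT scores were 103 against 197 at the median. Within the lowest score group 22 of 54 were kept (40.7%, interval 27.6 to 55.0) against 57 of 89 (64.0%, interval 53.2 to 73.9), and within the next 21 of 25 (84.0%) against 106 of 117 (90.6%). In the upper 2 groups 20 of 20 and 9 of 9 were kept. Among kept peaks the developmental ones had a median cover of 86.7% against 84.1%, a median score ratio of 0.821 against 0.819 and a median WT score of 142 against 210. In the third score group cover was 91.3% against 84.0% and the ratio 0.687 against 0.839, and these differences were not tested.

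Homeobox genes outside the Hox clusters gave the most genes at kept broad peaks of these 4 lists. Of 144 such gene entries, 33 were at a kept broad peak (22.9%, against 1.62% of all 22367 protein-coding genes), 17 at broad peaks that were not kept, 21 at narrower kept peaks, 13 at narrower peaks not kept and 60 at none. Their 32 peaks had a median cover of 81.7% and 3 were split. Lhx3, Barhl1 and Phox2a were among those covered in full. Lmx1a kept 99.1% of 4042 bp and Nkx2-3 87.4% of 4325 bp. Cover was low at Vsx1 (32.7%), Nkx6-1 (37.7%), Nkx1-2 (40.3%, in 2 peaks) and Nkx2-2 (44.1%). At Mixl1, a mesendoderm gene, the WT score of 298.3 stood against 321.8. At Nkx2-1, a gene of lung, thyroid and forebrain, it was 220.9 and 266.1, and at Gsc, a gene of the organizer, 238.4 and 107.1.

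Of 40 Hox genes, 3 were at a kept broad peak (7.5%, against 1.62% of all protein-coding genes), Hoxb13 (80.9% covered, score 140.1 and 83.2), Hoxb1 (68.5%, 134.4 and 84.9) and Hoxc12 (27.9%, 133.5 and 50.5). The 5 at broad WT peaks that were not kept were Hoxd3 and Hoxd4 (score 99.7), Hoxd9 (57.1), Hoxb3 (96.5) and Hoxc8 (52.6). The other developmental transcription factors, matched by the names of the peak annotation, put 19 of 211 genes at 19 kept broad peaks, with a median cover of 91.0%. Npas2, Hes2 and Gata6, the last a primitive endoderm gene, were covered in full, and T (brachyury), a mesoderm gene, kept 98.0% with a score of 100.2 and 79.9. Foxq1, with 67.8% in 2 peaks, was the least covered of them. By the RefSeq symbols used for RNA-seq, Foxl1 (99.3% covered) and Tfap2e (98.1%) were at members too and are not in these counts. Signalling genes put 15 of 135 at 16 kept broad peaks, with a median cover of 90.3%. Among 5 Wnt genes besides Wnt1, cover was 100% at Wnt10b, 99.4% at Wnt5b, 84.4% at Wnt2b and 83.6% at Wnt9b, and Wnt7b had a peak at 99.5% and another at 37.1%. Bmp2 kept 89.0% in 2 peaks while its score was 259.6 and 104.7. Gdf6 (98.6%), Gdf7 (98.0%) and Grem1, a BMP antagonist gene (97.6%), were nearly whole. No gene of the PRC1 (16), PRC2 (10), replication-dependent histone (67) or housekeeping (12) lists was at a member, which at 1.62% of all protein-coding genes is near the background for lists of this size.

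Position at gene starts and CpG content were not used by the rule. A start of any annotated gene was inside or within 1 kb of 371 members (75.6%, interval 71.5 to 79.3), against 63.8% of the broad peaks not kept, 64.8% of narrower peaks that were kept and 54.9% of all WT peaks. Wide peaks meet starts more easily, so bases were compared too. Of the members' bases 43.0% lay within 1 kb of a start, against 32.4% in broad peaks not kept, 54.0% in narrower kept peaks, 46.7% in all WT peaks and 4.0% of the genome, so by bases the members lay less near starts than WT peaks overall. A protein-coding start lay inside 262 members (53.4%). These members reached 1798 bp into the gene side at the median and 926.5 bp upstream, and 182 of the 262 were longer on the gene side. H1-TKO peaks left 27.9% of their upstream length uncovered and 17.3% of their downstream length, yet 108 members lost more bases upstream, 127 more downstream and 27 as many on both sides. The start itself was covered at 221 of 271 starts (81.5%, interval 76.4 to 86.0). With the lists exchanged the shares were 18.9% upstream, 10.4% downstream and 92.0% of starts.

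The median member had 4.56 CpG per 100 bp, a GC content of 57.4% and a ratio of observed to expected CpG of 0.576. For broad peaks not kept these were 3.79, 53.8% and 0.518, and narrower kept peaks had 3.802 CpG per 100 bp. A ratio of at least 0.6 was reached by 209 members (42.6%), near the 38.6% of all kept WT peaks. Within members, the covered length held more CpG than the uncovered length in most cases. Among 281 members with at least 300 bp of each, the medians were 5.02 and 2.97 CpG per 100 bp, and 2.25 in the 1 kb on either side of the peak. The covered length was the denser in 187 of the 281 and the uncovered length in 94. With the lists exchanged it was 104 of 147. Nptx1 (8.13 against 3.38), Mfsd2a (7.79 against 1.89) and Fgf3 (10.05 against 4.40) were of the first kind, and Gab1 (4.46 against 4.96) and Atp7b (1.22 against 2.91) of the second.

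The members were spread unevenly over the chromosomes. Chromosome 8 held 68 (13.8%), although it makes up 4.96% of the assembled length and held 8.35% of all WT peaks. Chromosome 1 held 56 (11.4%) with 7.43% of the length. No broad WT peak lay on X or Y. Of the 57 broad WT peaks on chromosome 1, 56 were kept (98.2%, interval 90.6 to 100). The median cover there was 94.0%, against 84.4% over all members, and the median score ratio 0.984. On chromosome 8, 68 of 72 were kept with a median cover of 83.1% and a ratio of 0.79. Narrower kept peaks on chromosome 1 also had a high cover, 95.3%, and a ratio of 1.15. The lowest median ratios were on chromosomes 15 (0.642), 7 (0.663) and 6 (0.67). The lists hold no reads and no input, so copy number was not tested. Members were seldom neighbours, with 26 of the 491 within 5 kb of another.

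RNA-seq gives a readout that the rule did not use, but its genotypes are in conflict. The libraries labelled WT sit in tables whose headers say knockout, and those labelled H1KO in tables whose headers give R1. R1 is the mESC line in which the H1-TKO line was made. Groups follow the labels here, and every direction turns round if the headers are right. Of the knocked-out genes, H1f2 (H1c) had 18.7 and 7.37 normalized counts in the libraries labelled WT and 11.6 and 56.7 in those labelled H1KO. H1f3 (H1d) had 1.10 and 0, against 3.88 and 41.5, and H1f4 (H1e) 0 and 2.11, against 5.43 and 19.6. H1f3 and H1f4 were thus higher in the libraries labelled H1KO, which goes against the labels, although neither difference passed a test. H1f3 reached the filter for testing only through the libraries labelled H1KO, so its adjusted p of 0.10 in limma carries little weight. H1f4 was under the filter. Transcripts of these genes mostly lack a poly(A) tail, and their level does not check the edit, since reads over the edited site were not analysed here. The replication-independent H1f0 had 1944 and 2118 against 571 and 464 (log2 difference −1.98 ± 0.16, SE, adjusted p = 0.0014 in limma), and H1f10 was lower as well, at 427 against 137 on average. Recovered reads numbered 6951619 to 10538507 per library.

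Genes with several accessions are poorly counted in these tables. Of 269 accessions of such genes at members, 203 (75.5%) were listed at 0 in all 4 libraries, against 12 of 279 (4.3%) for genes with 1. Over all accessions these shares were 65.0% and 16.5%. Gapdh, a housekeeping gene with 2 accessions, was at 3.10 or less. Levels are therefore given for genes with a single accession. Genes at the members had a lower median level than genes at narrower or no WT peaks in each of the 4 libraries, but fewer of them were under 1 normalized count than of genes at no WT peak (14.3% against 28.7%). Over 279 such genes with a single accession, the median of the mean over the 4 libraries was 7.13 normalized counts, with quartiles of 2.16 and 26.7. Genes at narrower WT peaks only had a median of 19.8, and genes at no WT peak 25.1. Per kb of exon the medians were 2.27, 6.41 and 13.0. Under 10 normalized counts were 156 of the 279 (55.9%), against 44.3% of all such genes. Genes at broad WT peaks that were not kept were lower still, at a median of 2.50, 1.02 per kb, with 85.0% of 40 under 10. The median at the members was between 4.36 and 6.98 in each library. By the mean of the 4 libraries the highest levels at members were at Nes, Lsm14b, Nmnat2, Sfi1 and Col4a1. Nes codes for nestin, an intermediate filament protein of neural progenitors, and its place rests on replicate 1 labelled H1KO, at 2920, while it had 204 and 224 in the libraries labelled WT. Lsm14b had 816 to 1071 in all 4. Nmnat2, an enzyme of NAD synthesis in axons, had 808 ± 54.7 (SD, n = 2) in the libraries labelled WT and 580 ± 12.2 (SD, n = 2) in those labelled H1KO, and did not pass the test (adjusted p = 0.061 in limma).

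Of 548 accessions of genes at members, 140 passed the filter of a mean of 10 normalized counts and were tested with limma. In the libraries labelled H1KO 21 were higher (15.0%), against 10.7% of all 11113 accessions tested, and 6 were lower (4.29%), against 9.84%. The other 113 did not pass. The median log2 difference of the 140 was −0.16, and 0.03 over all. The sign of the members' median rests on single libraries, at −0.29 without replicate 1 and 0.15 without replicate 2 of those labelled H1KO, and it was 0.30 at a mean of at least 50. Sox18, Rnf217, Grb10, Pxdc1 and Kcng3 among the higher, and Cdh22 and Chst8 among the lower, reached the filter only through the label under which they were high, so their calls carry little weight and their values are given without a test. The counts rest on single libraries. Without replicate 1 of those labelled H1KO, 20 were higher (15.4%, against 25.1% of all accessions tested) and 30 lower (23.1%, against 24.5%), so the higher share was then under that of all accessions. Without replicate 2 they were 40 (28.2%, against 23.1%) and 22 (15.5%, against 22.0%). Without replicate 1 of those labelled WT, 9 were higher (6.57%, against 3.75%) and 0 lower (against 1.99%), and without replicate 2, 10 (7.14%, against 3.60%) and 1 (0.714%, against 1.90%). In bulk samples, fewer cells of a type and less RNA per cell cannot be told apart.

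Among the genes called, the largest differences were at genes of several tissues, and the first of them reached the filter only through 1 label. Mfsd2a (log2 difference 3.35) and Cacna1e (−2.78) did not pass. Cacna1e averaged 30.7 in the libraries labelled WT and 5.84 in those labelled H1KO, so it too reached the filter only through 1 label. Sox18, a factor of vessel development, had 1.10 and 0 normalized counts in the libraries labelled WT and 24.1 and 28.4 in those labelled H1KO. Rnf217 had 2.204 and 0 against 51.2 and 17.5, and Grb10, an imprinted growth inhibitor gene, 7.71 and 3.16 against 130 and 66.5 at 1 of its 2 accessions, with the other listed at 0. Nes had 204 and 224 against 2920 and 849 (2.87 ± 0.49, adjusted p = 0.011 in limma). The groups did not overlap at any of these 4, which choosing called genes favours, so it adds no support. The libraries labelled H1KO lay far apart at Nes and Rnf217. Pxdc1 had 3.31 and 3.16 against 41.9 and 15.3. Nefh, a neurofilament gene, had 128 and 119 against 514 and 1159, and Trio 144 and 116 against 678 and 418. In the other direction, Cdh22, a cadherin gene, had 32.0 and 25.3 against 3.88 and 4.36, and Chst8 30.9 and 34.8 against 5.43 and 4.36. Cpne7 had 120 ± 0.0205 (SD, n = 2) against 25.8 ± 19.5. Col26a1 had 58.4 and 62.1 against 14.0 and 19.6, and Arhgef4 280 and 275 against 89.2 and 92.7. The libraries of 1 label lay close together at these genes, except Cpne7 in those labelled H1KO.

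**Figure D3:**
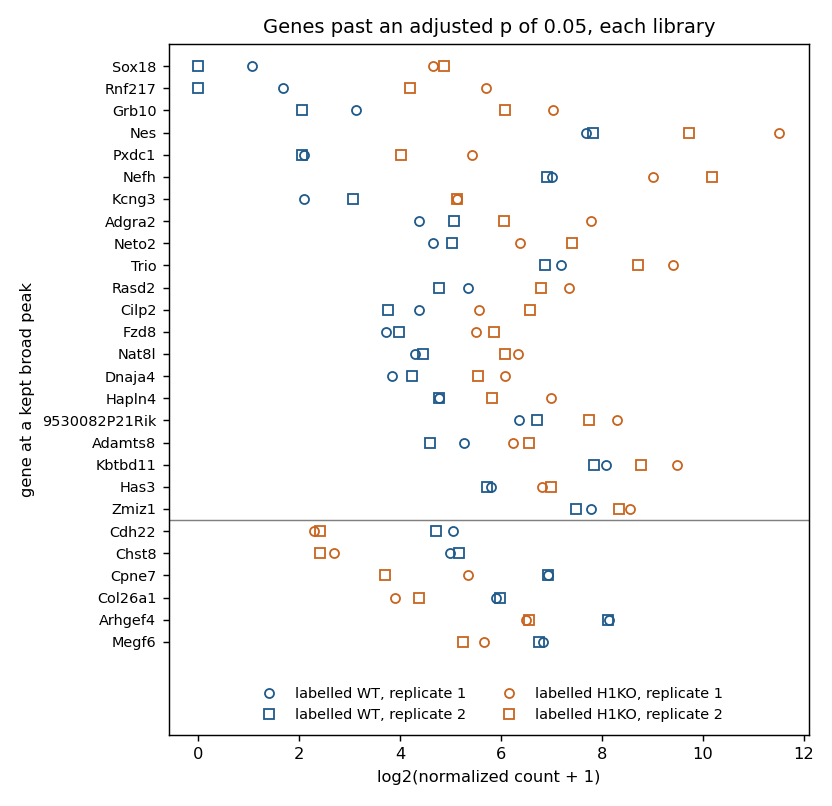
RNA level of the 27 genes at members past an adjusted p of 0.05 in limma, as log2(normalized count + 1) (x axis), 1 point per library. Above the line are 21 genes higher in the libraries labelled H1KO (orange) and below it 6 lower. Circles and squares are replicates 1 and 2. No gene has overlapping groups, which choosing genes by this test favours. Genes that reached the filter only through 1 label are included.

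Calls were also counted by the cover of the peak, with no conclusion drawn, since the counts are small and include genes that reached the filter only through 1 label. Among genes at a single member covered by under 50%, 3 of 16 accessions tested were higher and 0 lower. At 50 to 90% cover 8 of 59 were higher and 1 lower, and at 90% or more 10 of 60 were higher and 5 lower. Over all accessions tested 10.7% were higher and 9.84% lower. Cilp2, next to the widest member, had 19.8 and 12.6 against 46.6 and 93.8, with its peak covered in full. Has3 had 55.1 and 51.6 against 112 and 127 with 18.7% covered. For RNA-seq the developmental lists were matched by RefSeq symbol, which adds Tfap2e to the genes tested. Of these lists, 13 accessions at members were tested and 1 was called, no larger a share than over all accessions. It was Sox18, which reached the filter only through the libraries labelled H1KO. Fgf3, at 11.02 and 4.21 against 15.5 and 16.4, had an adjusted p of 0.30 in limma, and T, at 22.0 and 13.7 against 10.1 and 13.1, one of 0.54. Eomes was listed at 0 in all 4 libraries, but it has several accessions, and such zeros cannot be read as absence.

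Most stem cell markers were high in all 4 libraries, but markers differed between the labels. Pou5f1 had 2593 to 5122 normalized counts, Sox2 3958 to 9654 and Zfp42 6015 to 8991. Nanog and Esrrb, which have several accessions, were listed at 0 and at 3.27 or less. The 10 stem cell markers summed to 49770 and 50690 in the libraries labelled WT and to 29010 and 41500 in those labelled H1KO. Only 4 of the 10 were higher in both libraries labelled WT. Tdgf1 went the other way (2228 and 2474 against 3503 and 3141). Summed neurectoderm markers, which include Nes, were 813 and 882 in the libraries labelled WT and 3850 and 2297 in those labelled H1KO, mostly from Nes and Tubb3. Trophoblast markers summed to 214 and 228 against 1705 and 459, mostly from Krt8 (72.7 and 113 against 1438 and 314), while Tfap2c went the other way (78.2 and 102 against 26.4 and 48.0). Primitive endoderm markers summed to 48.5 to 71.4 and mesoderm markers to 46.6 to 87.3. Feeder fibroblast markers summed to 479 to 576, but single genes went both ways. Acta2 had 2.204 and 0 against 217 and 180, Col1a1 34.2 and 53.7 against 196 and 148, and Thy1 450 and 511 against 109 and 125, while Dcn and Postn were listed at 0. The part of these cells in the RNA differences above was not tested.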

How the data were processed

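The data were 1 list of H3K27me3 ChIP-seq peaks from each genotype, WT and H1-TKO, and RNA-seq of 4 libraries. The authors aligned ChIP-seq reads to mm9 with bowtie2, removed duplicates, kept uniquely mapped tags and called peaks with MACS. The deposited score is −10 times the log10 of the p-value. The lists hold no reads, but the study's reporting summary gives both libraries a nearly equal read number. For RNA-seq the authors used Subread, featureCounts and DESeq2, and the deposited signal is a normalized count per accession. All values (100%) were whole multiples of 1 read, within 0.01 reads up to 100 reads and within 0.01% of the value above, a tolerance that says little for the highest values.

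Peaks were intersected (1 bp or more) and placed in GENCODE M1 (NCBIM37) by starts inside or within 1 kb. Shares have 95% Clopper-Pearson intervals for counting error, and no test was run between lists. limma 3.58.1 in R 4.3.3 was run with trend on log2(normalized count + 1) at a mean of at least 10, with Benjamini-Hochberg adjustment over 11113 accessions, so log2 differences of low genes are understated. Differences are the libraries labelled H1KO minus those labelled WT, with 2 libraries per label. The labels name no separate cultures. The study states that sequencing experiments were done independently in duplicate, so p-values measure the spread between 2 such experiments. edgeR 4.0.16 and DESeq2 1.42.0 on recovered reads were alternatives. On simulated data, limma recovered 183 of 200 changed genes with 6 false calls among 10936 for the labelled H1KO against labelled WT comparison. The simulation gave all genes and both labels the same spread, which the real libraries did not have. It checks the code and does not measure the error of the calls here. Of 34010 accessions 33650 had a symbol (RefSeq, GRCm38.p6, names only) and 31405 a place in GENCODE M1. Levels use genes with 1 accession. Python 3.11.15, pandas 2.3.3, scipy 1.17.1 and pysam 0.24.0 were used.

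Named are the 10 widest members, the 5 at each end of cover and score ratio, the 5 met by most H1-TKO peaks, the 5 on each side of the width limit, broad peaks not kept, listed genes at members, linker histones, and in RNA-seq the 5 largest changes each way and the 5 highest levels. The members, lists and tests were chosen with earlier results of these data known. The other samples of the series were not analysed here. Some items that the naming rule covers are not reported here.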

Additional observations from a re-analysis of the deposited data

How the results depend on the processing

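With 1 peak list per genotype, kept and covered describe these lists only. The kept share of 86.0% was 74.6% when at least 50% had to be covered, 62.2% with H1-TKO scores of 100 or more, 78.1% at 3000 bp or more and 90.7% when peaks within 1 kb were merged first. Median cover of 84.4% was 72.3% with H1-TKO scores of 100 or more and 94.1% with the lists exchanged. The 90 split members became 10 with H1-TKO peaks merged within 500 bp, 2 within 1 kb and 14 at scores of 100 or more, and 44 with the lists exchanged, where the score ratio of 0.819 was 1.02. A start was inside 57.0% of members and within 2 kb of 81.1%. The central 1000 bp had 5.30 CpG per 100 bp. The median RNA level of 7.13 was 5.74 for starts inside the peak and 4.36 in replicate 2 labelled H1KO alone. The 27 RNA calls at members became 2 without the filter on low values (0 higher, 2 lower, of 548 tested, where 47 had an unadjusted p under 0.05) and 15 at a mean of 50 (of 51 tested). Leaving out each replicate gave 9 to 62 calls, with the lone library assumed to vary like those of the other label. With edgeR there were 26 calls, all among the 27, and with DESeq2 31, which held all 27. The replicate block gave 45 calls, 27 higher and 18 lower. The numbers did not pair the libraries (correlation of deviations 0.011 over 11113 accessions), so the block is given only here. Without replicate 1 or 2 labelled WT, 19 and 18 of the 27 genes lost their call. No gene of the 27 changed direction under the alternatives in which it was tested. Their groups did not overlap, so leaving out a library could not turn a direction, and no support is drawn from this. Sox18, Rnf217 and Pxdc1 were not tested in some of the fits. Other pseudocounts and scalings moved the count to between 26 and 31. The causes of these differences were not tested beyond what each setting itself removes. Repeats are not marked in the genome used, so the planned count without repeats was not run.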
